A study of Mus musculus with 16 samples.

Results

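The comparison described here is the response of mouse embryonic stem (ES) cells to doxycycline (Dox) when Dox induces an activator aimed at a family of retroviral repeats and A-MYB, a germ cell transcription factor, is not added. Its members are all RNA-seq libraries of day 3 with Dox and without added A-MYB and all those of day 3 with neither, which makes 4 of the 16 samples of the series. Dox cells (2 libraries) and control cells (2 libraries) were J1 ES cells of 129S4/SvJae background at passage 36. Both groups carried the same transgenes, dCas9-VPR and a guide RNA for RLTR10B2 marked with DsRed, and differed in Dox, added at 1 µg/ml on day 1 and day 2 or left out. All were grown on gelatin without feeder cells in medium with fetal bovine serum, LIF and the pair of inhibitors known as 2i, PD0325901 against MEK and CHIR99021 against GSK3, and were harvested on day 3. The other samples of the series were 4 libraries of the same ES cells with A-MYB expressed, 2 with Dox and 2 without, and 8 chromatin libraries of pachytene spermatocytes from A-myb repro9/repro9 mutant and wild-type C57BL/6J mice of 8 to 12 weeks.

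dCas9-VPR is a Cas9 protein that no longer cuts DNA, fused to strong transcriptional activation domains, so that a guide RNA brings activation to the sites it matches. RLTR10B2 is a family of long terminal repeats (LTRs) of endogenous retroviruses with many copies across the mouse genome, and in male meiosis members of the family are known to work as enhancers of germline genes. In 2i and LIF, mouse ES cells stay in a naive pluripotent state in which many germline genes are repressed by the PRC1.6 repressor complex, by H3K9 methylation and, after it is laid down, by DNA methylation.

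The groups compared hold neither cells with Dox but no activator nor cells with a different guide, so effects of Dox itself and of the activator cannot be told apart. RNA was taken from wells of a 24-well plate, and the sources used here do not say whether the 2 libraries of a group came from separate cultures. The p-values therefore measure the spread between libraries of a group, estimated over all 8 ES libraries, and that spread may be technical. The level of the activator itself, and of the repeats, was not analysed here.

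Gene counts summed to 33771487 and 29735161 in the Dox libraries, against 30588744 and 26995317 in the control libraries. Reads assigned to no gene made up 7.45% and 7.83% of the total in the Dox libraries, against 7.28% and 7.34% in the control libraries, so both Dox libraries lay above both control libraries. Levels are given as CPM, the counts of a gene relative to the scaled size of the library, which are not per length and are compared only within a gene. The 10 ES cell markers fixed for the label summed to 7532 and 7579 CPM in Dox cells, against 7608 and 7367 CPM in control cells. The 10 fibroblast markers summed to 14.9 and 12.1 CPM in Dox cells, against 22.8 and 21.0 CPM in control cells, with Postn, Dcn and Lum at 0 counts in all 4 libraries. The summed markers of endoderm, trophoblast, mesoderm and neuroectoderm stayed between 3.42 and 9.96 CPM in every library. In bulk RNA, fewer cells of a type and less RNA per cell cannot be told apart.

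Mybl1, the gene of A-MYB, stood at 10.99 and 10.2 CPM in Dox cells, against 8.38 and 6.91 CPM in control cells. Both groups thus held a low level of Mybl1 transcript, and both Dox libraries lay above both control libraries. The log2 fold change was 0.47 (SE 0.15, adjusted p = 0.0167), and it did not pass without Dox replicate 1 (adjusted p = 0.119) or without control replicate 2 (0.188). The pluripotency factor Nanog stood at 1001 and 1008 CPM in Dox cells, against 1014 and 951 CPM in control cells, and Pou5f1, which encodes OCT4, at 1403 and 1457 CPM in Dox cells, against 1616 and 1467 CPM in control cells. Neither passed the test (log2 fold change 0.03, adjusted p = 0.71 for Nanog, and -0.11, adjusted p = 0.365 for Pou5f1).

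In edgeR's quasi-likelihood test, 4716 of the 14664 genes tested passed an adjusted p of 0.05, which is 32.2%. Of these, 2626 rose in Dox cells (17.9%) and 2090 fell (14.3%). Most changes were small, since 337 genes rose at least 2-fold (2.3%) and 250 fell at least 2-fold (1.7%), and the median log2 fold change over all tested genes was 0.03. Both Dox libraries lay above both control libraries in 36.5% of tested genes and below both in 30.7%. These percentages are the background for every count below. Leaving out 1 of the 4 libraries in turn gave 1462 to 1959 genes that rose and 1212 to 1463 that fell, and the lowest counts came without control replicate 1 (1462 rose, 1248 fell) and without Dox replicate 1 (1497 rose, 1212 fell).

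The largest increases were in genes that control cells barely expressed. Stac3, an adaptor of excitation-contraction coupling in muscle (chromosome 10, 127501617 to 127508823, GRCm38.p6), stood at 7.21 and 8.18 CPM in Dox cells, against 0.173 and 0.0777 CPM in control cells. Nmnat3, which makes NAD in mitochondria, stood at 17.4 and 16.6 CPM in Dox cells, against 0.485 and 0.311 CPM in control cells. Sytl4, also called granuphilin, a Rab27 effector of granule release (chromosome X, 133936385 to 133981821), stood at 7.66 and 5.91 CPM in Dox cells, against 0.208 and 0.194 CPM in control cells. Genes were named for their rise only if the groups did not overlap. In these 3 every Dox library lay far above every control library. The log2 fold changes were 5.86 for Stac3 (SE 0.32, adjusted p = 4.45e-13), 5.39 for Nmnat3 (SE 0.21, adjusted p = 7.31e-16) and 5.05 for Sytl4 (SE 0.33, adjusted p = 2.65e-11).

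Nrip3 and BC051019 lie close to each other on chromosome 7 (109758056 to 109781545 and 109712181 to 109723934). BC051019 stood at 30.7 and 32.2 CPM in Dox cells, against 0.969 and 1.75 CPM in control cells, a log2 fold change of 4.55 (SE 0.16, adjusted p = 2.83e-16). Nrip3 stood at 13.1 and 13.8 CPM in Dox cells, against 0.381 and 0.660 CPM in control cells, a log2 fold change of 4.70. The other genes with the largest rises cover unrelated functions. Agpat9, a glycerol-3-phosphate acyltransferase, rose by a log2 of 4.43, Megf6, a protein with EGF-like domains, by 3.72, Dnahc11, a heavy chain of axonemal dynein, by 3.14, and Cdh24, a cadherin, by 2.74. Neto2, an auxiliary subunit of kainate receptors, rose by 2.05 (9.81 and 9.96 CPM in Dox cells, against 2.67 and 2.098 CPM in control cells). H19, an imprinted long noncoding RNA, stood at 56.3 and 61.9 CPM in Dox cells, against 8.34 and 9.09 CPM in control cells, a log2 fold change of 2.76 (SE 0.11, adjusted p = 9.1e-16).

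Cyp1a1, the P450 enzyme that the aryl hydrocarbon receptor induces, stood at 7.90 and 6.63 CPM in Dox cells, against 0.450 and 1.48 CPM in control cells (log2 fold change 2.95, SE 0.28, adjusted p = 2.21e-07). Slc13a3, a dicarboxylate transporter, had 159 and 127 counts in Dox cells and 0 in both control libraries, at least 83.8-fold higher in Dox cells when the floor is 3 counts over the group. Each of the genes named in this and the last 2 paragraphs also passed when any 1 of the 4 libraries was left out.

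The decreases were smaller in fold than the increases. Igfbp4, a secreted protein that binds insulin-like growth factors, stood at 4.30 and 3.71 CPM in Dox cells, against 18.5 and 20.1 CPM in control cells (log2 fold change -2.26, SE 0.17, adjusted p = 4.75e-10). Lefty1, a secreted Nodal antagonist, stood at 17.8 and 19.3 CPM in Dox cells, against 85.2 and 85.4 CPM in control cells (log2 fold change -2.20, SE 0.10, adjusted p = 5.52e-15). Ephx2, the soluble epoxide hydrolase, stood at 12.8 and 14.5 CPM in Dox cells, against 45.0 and 47.2 CPM in control cells (log2 fold change -1.76). Here too, groups without overlap were a condition for naming a gene, and in all 3 they lay well apart. Prmt8, an arginine methyltransferase, fell by 1.98 and Cbr3, a carbonyl reductase, by 1.97 on the log2 scale. The peptide hormone gene Adm2 stood at -1.77, the lipoprotein receptor gene Vldlr at -1.72, the stress-induced gene Nupr1 at -1.68 and Slc1a4, a transporter of neutral amino acids, at -1.66. Cfp, which encodes properdin, stood at -1.64, and Gpx2, a glutathione peroxidase, and Krt17, a keratin, both at -1.59. All of these fell, and all also passed without any 1 of the 4 libraries.

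**Figure D1:**
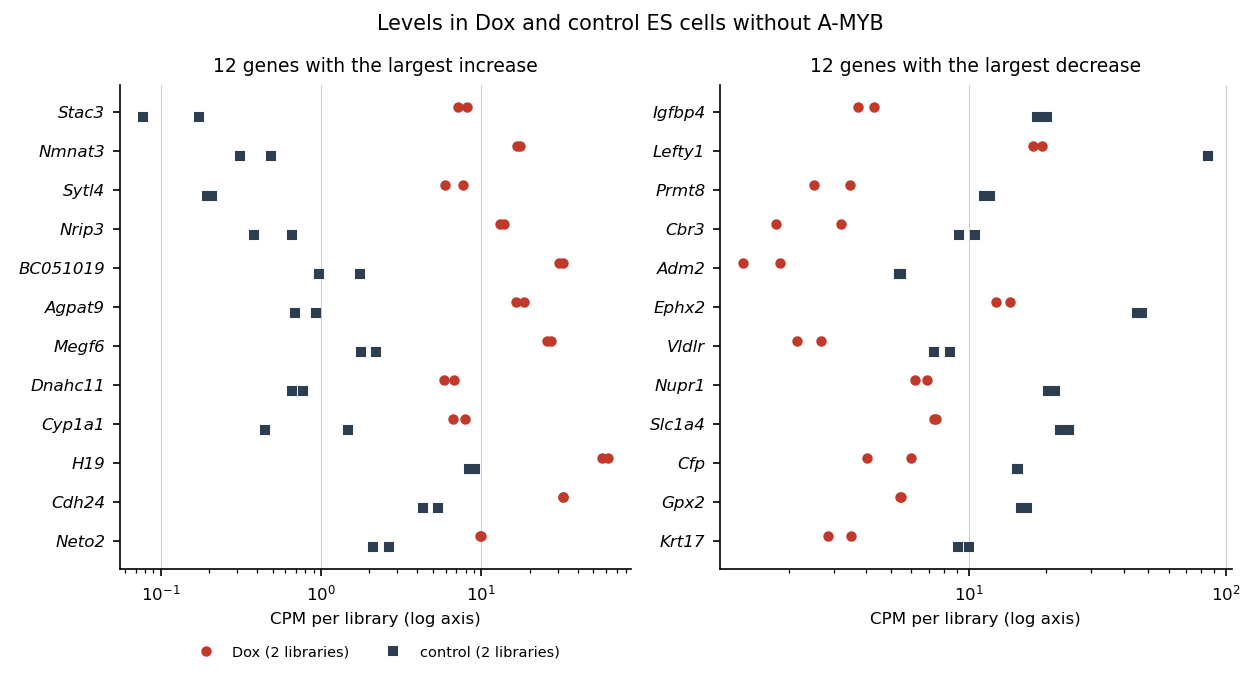
Level of the 12 genes named for the largest rises and the 12 named for the largest falls, as CPM in each of the 2 Dox libraries and the 2 control libraries (log axis). Each point is 1 library. Genes were named only if the Dox points lie on one side of the control points. Examples are Nmnat3 (17.4 and 16.6 against 0.485 and 0.311 CPM) and Lefty1 (17.8 and 19.3 against 85.2 and 85.4 CPM).

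The genes named for the largest differences in CPM, a measure that favours genes with many counts, changed by less than 2-fold. Eef1a1, the elongation factor that brings tRNA to the ribosome, stood at 8734 and 8627 CPM in Dox cells, against 11054 and 11072 CPM in control cells (log2 fold change -0.35, adjusted p = 2.04e-05). The chaperone gene Hsp90ab1 stood at 6530 and 6698 CPM in Dox cells, against 8111 and 7939 CPM in control cells (-0.28), and Ftl1, the ferritin light chain, at 2945 and 3121 CPM in Dox cells, against 3699 and 3721 CPM in control cells (-0.29). The glycolytic genes Pkm, Ldha and Aldoa fell as well, by 0.34, 0.42 and 0.39. The largest gains were in Eif4g2, a translation initiation factor, with 1928 and 1816 CPM in Dox cells, against 1506 and 1547 CPM in control cells (0.29), and in Trip12, a ubiquitin ligase, at 0.43. Eif4a2, an RNA helicase of translation initiation, stood at 0.53, and Cnot1, the scaffold of the CCR4-NOT deadenylase, at 0.32.

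Genes that rose at least 2-fold were set beside their neighbours on the chromosome. The nearest tested gene on either side had also risen at least 2-fold for 36 of 670 neighbours of such genes, or 5.37% (95% exact binomial interval 3.79 to 7.36%), against 2.3% of the neighbours of all tested genes. With the nearest 3 genes on each side it was 5.68%. The interval covers counting error only, and neighbours in a gene cluster are not independent. Each adjacent pair of risen genes was also counted from both sides, so the interval is too narrow. A single run of 8 genes on chromosome 17, described below, supplied more of the 36 than any other run. The share without that run would be lower, but was not computed. Among genes that fell at least 2-fold, 4.02% of neighbours had also fallen at least 2-fold, against 1.71% of the neighbours of all tested genes.

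There were 11 runs of adjacent tested genes that had all risen at least 2-fold, with 29 genes in all. The longest held 8 genes on chromosome 17, from 21816876 to 22393909 (GRCm38.p6), a cluster of genes for zinc finger proteins, a class that includes many KRAB proteins known to silence retroviral repeats. Zfp758, the last of the run, stood at 6.66 and 3.95 CPM in Dox cells, against 1.59 and 2.37 CPM in control cells (log2 fold change 1.44, SE 0.29, adjusted p = 0.000946). Zfp943 stood at 4.24 and 3.88 CPM in Dox cells, against 1.90 and 1.44 CPM in control cells (1.27), and Zfp820, at the other end, at 12.8 and 9.48 CPM in Dox cells, against 5.30 and 5.52 CPM in control cells (1.05). The groups did not overlap in any of these 3 genes. The others of the run were Zfp942 (1.21), Zfp947 (1.63), Zfp944 (1.01), Gm4944 (1.4) and 2210404O09Rik (1.23). Without control replicate 1, 4 of the 8 still passed and rose, and without control replicate 2, 5 did. The genes of this cluster are near-identical copies of one another in part, so how reads were shared between them is uncertain.

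In A-MYB cells the same 8 genes did not rise with Dox, but there the level without Dox was already higher. In each of the 8, both A-MYB libraries without Dox lay above all Dox and control libraries without A-MYB. Zfp820 stood at 21.2 and 17.4 CPM in A-MYB cells without Dox, and at 12.9 and 7.83 CPM with Dox. Zfp758 stood at 11.4 and 7.15 CPM in A-MYB cells without Dox, and at 4.38 and 3.89 CPM with Dox. Zfp758 had a log2 fold change of -1.16 there (adjusted p = 0.000646) and Zfp820 of -0.89 (adjusted p = 0.00200), and the other 6 did not pass, with values from -0.58 to -0.10. In edgeR's interaction test the difference between both Dox effects passed for every gene of the run except 2210404O09Rik (adjusted p = 0.0535). For Zfp758 it was -2.59 (adjusted p = 2.89e-05). The run was chosen by the Dox effect without A-MYB, which this difference subtracts.

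**Figure D2:**
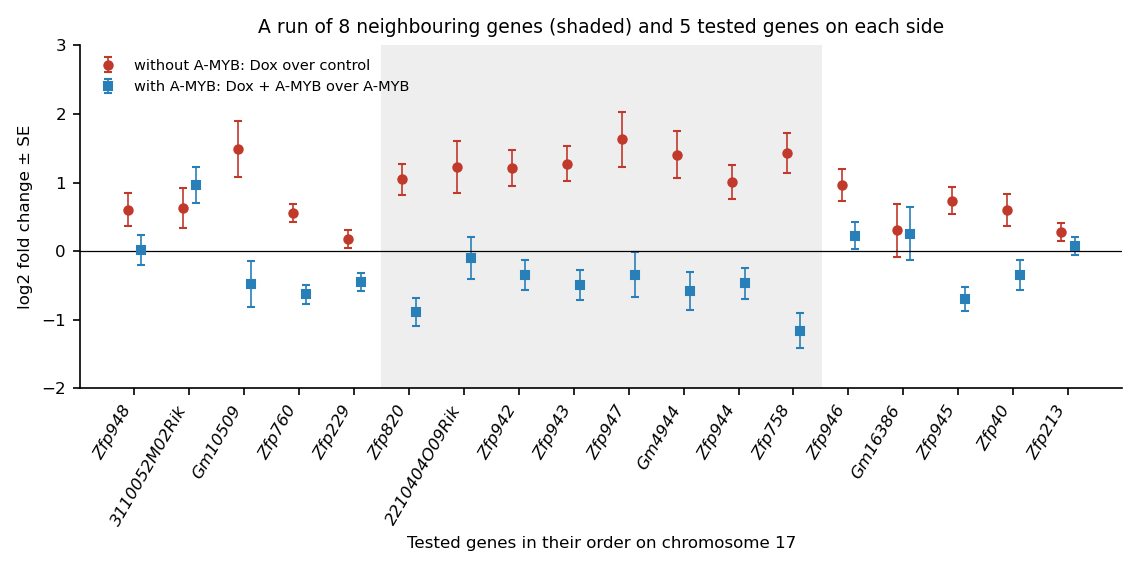
Log2 fold change with Dox (± SE) of 18 tested genes in their order along mouse chromosome 17, without A-MYB and in A-MYB cells; the shaded 8 genes are the run in which all rose at least 2-fold. In the shaded run the values without A-MYB lie between 1.01 and 1.63, and those in A-MYB cells between -1.16 and -0.10.

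The rise was not limited to that run. Among the 345 tested genes whose symbol starts with Zfp, a group chosen after the data were seen, 135 rose and 5 fell, 20 of them rose at least 2-fold, and the median log2 fold change was 0.28, beside 0.03 over all tested genes. On chromosome 17, 27 of 43 rose and 0 fell (median 0.56), and on chromosome 13, 18 of 34 rose and 0 fell (median 0.46). On the other chromosomes 90 of 268 rose and 5 fell (median 0.21). Without Dox replicate 1, and likewise without control replicate 1, 86 of the 345 rose. In A-MYB cells the same genes had 92 that rose with Dox, 83 that fell and a median of -0.02.

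The second longest run was on chromosome 13 (66996818 to 67097976) and held 4933433G19Rik (log2 fold change 2.29), Zfp712 (1.4) and Zfp708 (1.08). Zfp712 did not pass without control replicate 2 (adjusted p = 0.0758) and Zfp708 not without control replicate 1 (0.0901), and 4933433G19Rik was lost in 3 of the 4 repeats. The other runs were pairs. Klrb1a, a receptor of natural killer cells, stood at 1.54 and 1.07 CPM in Dox cells, against 0.0346 and 0.117 CPM in control cells (4.09), beside BC064078 on chromosome 6. Defb36, a defensin, had no count in control cells and was at least 28.1-fold higher in Dox cells, beside 6820408C15Rik on chromosome 2. On chromosome 10, 4932415G12Rik (3.43) stood beside Tmcc3 (1.29). BC064078 and 6820408C15Rik were each lost in 3 of the 4 repeats, and Tmcc3 did not pass without Dox replicate 1 or without control replicate 1. A further pair on chromosome 14 was named after its values were seen, because both genes passed without any 1 library. Slc39a14, a zinc and manganese importer, stood at 16.9 and 17.1 CPM in Dox cells, against 6.89 and 7.03 CPM in control cells (1.29). Its neighbour Piwil2, a PIWI protein of the piRNA pathway, stood at 27.04 and 27.8 CPM in Dox cells, against 12.2 and 11.3 CPM in control cells (1.22).

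Most tested genes of a list of germline genes rose, and control cells already expressed some of them. In the lists below, a count of 1 or 2 in the lesser direction was often lost without a single library. Of 51 tested genes of this list, 30 rose, 5 fell and 16 did not pass, with a median log2 fold change of 0.63, beside 17.9% that rose, 14.3% that fell and a median of 0.03 over all tested genes. Without any 1 of the 4 libraries 21 to 23 rose and 2 or 3 fell. Sycp1, the transverse filament of the synaptonemal complex, stood at 2.88 and 1.65 CPM in Dox cells, against 0.415 and 0.233 CPM in control cells (log2 fold change 2.78, SE 0.44, adjusted p = 2.83e-05). Tdrd1, a Tudor protein of the piRNA pathway, stood at 2.54 and 1.55 CPM in Dox cells, against 0.312 and 0.350 CPM in control cells (2.63, SE 0.44, adjusted p = 6.49e-05). Slc25a31, the ADP/ATP carrier of male germ cells, stood at 5.12 and 4.78 CPM in Dox cells, against 1.45 and 1.28 CPM in control cells (1.85, SE 0.24, adjusted p = 2.52e-06). All 3 remained low in CPM but without overlap between the groups.

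A further pair of germline genes that rose was chosen after their values were seen. Ddx4, the VASA helicase of germ cells, stood at 28.6 and 27.2 CPM in Dox cells, against 12.8 and 13.6 CPM in control cells (log2 fold change 1.08, SE 0.10). Taf7l, a germ cell form of a TFIID subunit, stood at 7.03 and 8.52 CPM in Dox cells, against 2.53 and 2.64 CPM in control cells (1.59, SE 0.17). Of 10 tested genes of spermatids and sperm, 0 passed in edgeR's test in either direction, and 2 fell when the low-count filter was left out or the 4 libraries were fitted alone. In the list of spermatogonia genes 7 of 15 rose and 2 fell, and without Dox replicate 2 or control replicate 1 it was 4 that rose.

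Promoters of germline genes that PRC1.6 represses are known for the E-box CACGTG, which its MGA-MAX subunits bind, and for an E2F element, TCCCGC, bound by its E2F6 subunit. Both strands were searched from 250 bases before to 50 bases after the start site, in RefSeq sequence of GRCm38.p6. Shown are the promoters of the list members that passed, hold an E-box and changed the most, Sycp1 (chr3:102936051-102936350, minus strand) and Tdrd1 (chr19:56825959-56826258, plus strand), and that of Slc25a31 (chr3:40708621-40708920, plus strand), one of the pair that did so for the E2F element, the other being Sycp1. Capitals mark CACGTG at position -94 of Sycp1 and -11 of Tdrd1, and TCCCGC at position 20 of Slc25a31, counted from the start site at 0. Slc25a31 also holds CACGTG, and Sycp1 also holds TCCCGC at position 2, both left in lower case.
Sycp1: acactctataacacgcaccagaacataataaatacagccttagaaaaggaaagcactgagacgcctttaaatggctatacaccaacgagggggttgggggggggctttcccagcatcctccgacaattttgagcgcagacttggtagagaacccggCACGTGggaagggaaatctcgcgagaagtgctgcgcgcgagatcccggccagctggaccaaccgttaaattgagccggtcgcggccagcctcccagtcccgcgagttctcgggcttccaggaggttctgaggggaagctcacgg
Tdrd1: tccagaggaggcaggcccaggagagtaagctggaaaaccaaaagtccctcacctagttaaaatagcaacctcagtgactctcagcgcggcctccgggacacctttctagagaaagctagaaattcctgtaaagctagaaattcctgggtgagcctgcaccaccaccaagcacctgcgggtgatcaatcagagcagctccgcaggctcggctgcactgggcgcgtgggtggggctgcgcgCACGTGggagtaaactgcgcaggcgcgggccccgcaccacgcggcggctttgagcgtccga
Slc25a31: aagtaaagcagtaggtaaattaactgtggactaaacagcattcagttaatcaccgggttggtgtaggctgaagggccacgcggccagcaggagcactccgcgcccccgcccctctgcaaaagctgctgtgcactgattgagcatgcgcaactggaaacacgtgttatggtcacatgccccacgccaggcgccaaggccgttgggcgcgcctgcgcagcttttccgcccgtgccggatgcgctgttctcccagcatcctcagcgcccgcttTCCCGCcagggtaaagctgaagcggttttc

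Of the 46 tested list members with a promoter in the table, 18 held CACGTG (39.1%). Over all 27025 genes there, tested or not, it was 8.09%, and over all 32851 promoters 7.15%. Among those 18, 15 rose and 0 fell, with a median log2 fold change of 1.00. Among the 28 without it, 11 rose and 5 fell, with a median of 0.32. Over all tested genes the gap was narrower, with 22.4% rising among 1342 genes with CACGTG and 17.7% among 10189 without it. TCCCGC was held by 21 of the 46 (45.7%), beside 22.0% of all genes, tested or not. Among tested genes 4512 held it and 7019 did not, a share much nearer that of the list. Of the 21 list members with it, 11 rose and 3 fell, with a median of 0.54. Of the 25 without it 15 rose and 2 fell, with a median of 0.71. Germline genes that PRC1.6 represses are known for both elements, so their shares in such a list are no independent result. A match says only that these letters lie in the window.

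**Figure D3:**
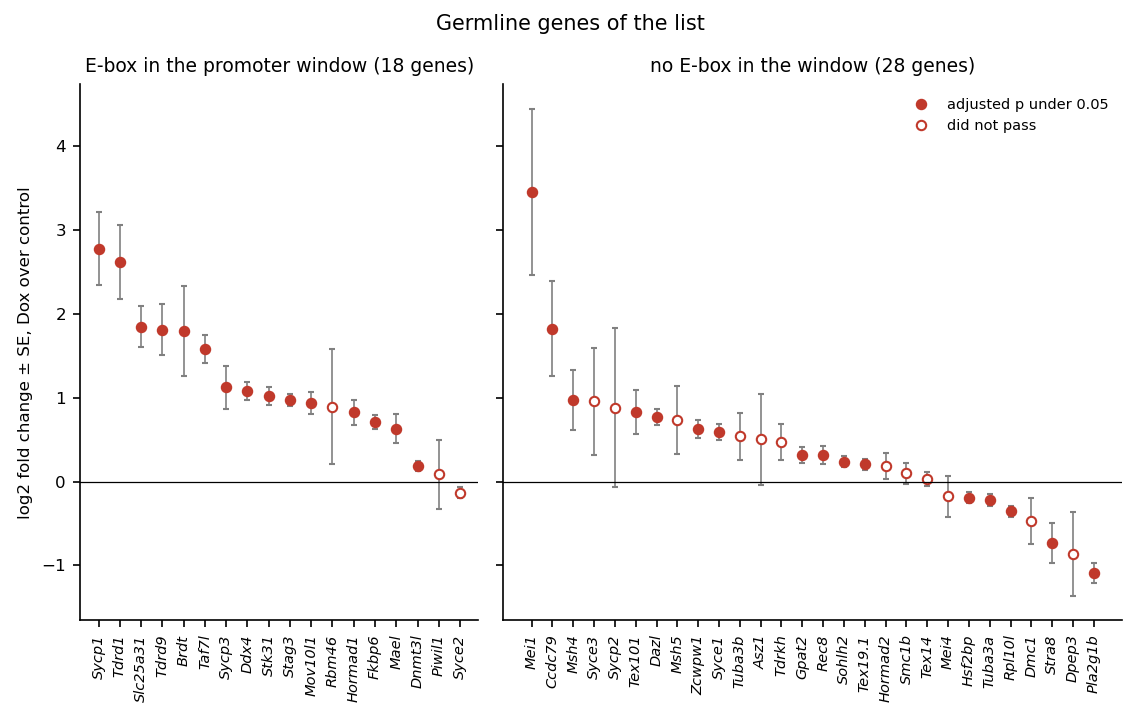
Log2 fold change with Dox of each tested germline gene with a promoter in the table, split by whether CACGTG lies from 250 bases before to 50 after its start site (18 genes with it, 28 without). Points are genes with bars for the SE, filled or open by whether the gene passed, and the horizontal line marks no change. The medians, which are not drawn, were 1.00 with the E-box and 0.32 without it.

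The repressor's own subunits changed little as a list. Of 18 tested PRC1.6 subunit genes, 3 rose, 1 fell and 14 did not pass (median 0.02). Mga and E2f6 were among the 3 that rose. Mga stood at 526 and 509 CPM in Dox cells, against 296 and 313 CPM in control cells (log2 fold change 0.77, SE 0.07, adjusted p = 6.62e-08), and E2f6 at 30.0 and 28.1 CPM in Dox cells, against 17.3 and 17.9 CPM in control cells (0.72, SE 0.09, adjusted p = 2.24e-06). Rybp, another subunit, stood at 0.45. The gene that fell was Ehmt2, the H3K9 methyltransferase G9a (179 and 180 CPM in Dox cells, against 225 and 228 CPM in control cells, log2 fold change -0.33).

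Of 19 tested genes that write or erase DNA methylation, 8 rose and 4 fell (median 0.15), with 5 that rose without control replicate 1 and 2 that fell without Dox replicate 1 or control replicate 2. The dioxygenase gene Tet1 stood at 486 and 455 CPM in Dox cells, against 293 and 332 CPM in control cells (log2 fold change 0.59), and Tet2 at 255 and 256 CPM in Dox cells, against 171 and 174 CPM in control cells (0.57). Uhrf2, a reader of modified cytosine, stood at 0.60. Dppa3, also called Stella, which protects maternal methylation in the egg, stood at 50.3 and 47.6 CPM in Dox cells, against 17 and 17.2 CPM in control cells (1.52, SE 0.09, adjusted p = 6.83e-12). For Dppa3 the control libraries were nearly equal and both Dox libraries lay far above them.

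Of 26 naive pluripotency genes, 13 rose, 3 fell and 10 did not pass (median 0.15). Besides Dppa3 and Tet2, the transcriptional regulator Utf1 stood at 116 and 127 CPM in Dox cells, against 76.1 and 80.2 CPM in control cells (0.64), and Dppa2 at 177 and 166 CPM in Dox cells, against 113 and 112 CPM in control cells (0.61). Sox2 (0.18), Esrrb (0.16) and Zfp42, which encodes REX1 (0.21), rose by small amounts, but Sox2 did not pass without Dox replicate 1 (adjusted p = 0.269) or control replicate 1 (0.159), Zfp42 not without Dox replicate 2 (0.0574), and Esrrb without any of the 4 (0.0610 to 0.165). Of 17 formative and primed genes, 5 rose and 4 fell, and 1 or 2 fell without any 1 library. Foxd3 (33.1 and 32.1 CPM in Dox cells, against 17.1 and 17.1 CPM in control cells, 0.93), Cldn6 (0.69) and Zic2 (0.63) were among those that rose.

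Of 22 tested genes that mark 2-cell-like cells, a rare state of ES cells, 8 rose and 0 fell (median 0.67). Tmem92 stood at 6.75 and 5.88 CPM in Dox cells, against 2.35 and 1.98 CPM in control cells (1.54), and Gm8300 at 10.5 and 9.76 CPM in Dox cells, against 6.13 and 4.93 CPM in control cells (0.87). The count rested on single libraries, since 3 rose without Dox replicate 1 and 5 without either control replicate. Of the X-linked Rhox homeobox genes, 7 of 25 in the files were tested, 3 rose and 0 fell. Rhox13 stood at 16.4 and 16.2 CPM in Dox cells, against 6.68 and 5.52 CPM in control cells (1.41), and Rhox6 at 2.60 and 3.47 CPM in Dox cells, against 0.866 and 0.621 CPM in control cells (2.01). The third, Rhox9, did not pass without 2 of the 4 libraries. Members of the 2-cell-like and Rhox lists include near-identical copies, whose counts are uncertain.

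Imprinted genes moved both ways, with 7 that rose and 13 that fell of 38 tested (median -0.18). H19 rose most, and Nnat, a membrane protein of neural tissue, stood at 2.27 and 1.41 CPM in Dox cells, against 4.43 and 5.63 CPM in control cells (log2 fold change -1.44). Without control replicate 2, 3 imprinted genes rose, without Dox replicate 2, 4 rose, and without control replicate 1, 8 fell.

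Several lists of metabolic genes had many members that fell and few that rose. In the list of cholesterol synthesis and uptake, 21 of 33 tested genes fell and 2 rose (median -0.50). Dhcr7, the last enzyme of the cholesterol pathway, stood at 56.6 and 58.3 CPM in Dox cells, against 111 and 121 CPM in control cells (log2 fold change -1.01, SE 0.07, adjusted p = 1.85e-10). Hmgcs1, which makes HMG-CoA, stood at 201 and 200 CPM in Dox cells, against 306 and 311 CPM in control cells (-0.62, SE 0.06, adjusted p = 2.74e-08). Mvd fell by 0.76 and Cyp51 by 0.74. The 2 genes called as risen were 1 or 0 without any 1 library, while 18 or 19 fell in each of those repeats.

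The sterol regulatory element in the form TCACNCCAC was found in the promoter of 1 of the 23 list members with a promoter in the table (4.35%), beside 1.44% of all genes. Of the 22 without it, 13 fell and 2 rose, with a median log2 fold change of -0.39, so most of the falls were in genes without a match. Over all tested genes, 18.4% fell among 163 with the element and 14.1% among 11368 without it. The 1 promoter with a match was that of Hmgcs1 (chr13:119690101-119690400, plus strand, GRCm38.p6, RefSeq), where the capitals mark it at position -137.
Hmgcs1: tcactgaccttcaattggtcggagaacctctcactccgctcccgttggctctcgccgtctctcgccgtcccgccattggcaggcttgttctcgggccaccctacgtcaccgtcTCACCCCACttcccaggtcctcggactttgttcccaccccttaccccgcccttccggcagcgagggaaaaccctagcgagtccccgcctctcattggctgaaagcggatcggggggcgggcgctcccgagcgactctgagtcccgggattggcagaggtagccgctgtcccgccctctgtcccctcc

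In fatty acid synthesis and desaturation, 14 of 31 genes fell and 2 rose (median -0.22). Scd2, a desaturase, stood at 891 and 883 CPM in Dox cells, against 1297 and 1437 CPM in control cells (log2 fold change -0.62), and Acsl3, a fatty acyl-CoA synthetase, at -0.49. Cpt1a stood at -0.65, and is on the list although it admits fatty acids to mitochondria and does not make them. Without Dox replicate 1 or either control replicate, 1 of the 2 genes called as risen still passed.

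Glycolysis genes fell in 18 of 25 and rose in 0 (median -0.39). Besides Pkm, Ldha and Aldoa, Ldhb stood at 146 and 143 CPM in Dox cells, against 277 and 260 CPM in control cells (-0.89, SE 0.07, adjusted p = 1.43e-09), Aldoc at 41.7 and 41.4 CPM in Dox cells, against 73.2 and 74.8 CPM in control cells (-0.83), and the hexokinase gene Hk1 at -0.75. Of 32 hypoxia-inducible genes, 20 fell and 2 rose (median -0.48). Loxl2, a collagen cross-linking enzyme, stood at 9.45 and 9.41 CPM in Dox cells, against 25.4 and 25.4 CPM in control cells (-1.43), and Egln3, an oxygen-sensing prolyl hydroxylase, at 18.3 and 18.5 CPM in Dox cells, against 36.1 and 44.2 CPM in control cells (-1.12). Vegfa, the angiogenic growth factor, chosen after its values were seen, stood at -0.61. Leaving out any 1 library gave 16 or 17 fallen glycolysis genes and 17 to 20 fallen hypoxia genes.

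The serine, proline and one-carbon pathways had 18 of 30 genes that fell and 0 that rose (median -0.28). Phgdh, which starts serine synthesis, stood at 88.6 and 92.1 CPM in Dox cells, against 163 and 154 CPM in control cells (log2 fold change -0.81, SE 0.07, adjusted p = 1.18e-08). Psph, which completes it, stood at -0.77, and Pycr1 and Aldh18a1, enzymes of proline synthesis, at -0.76 and -0.69. Glutathione and oxidative stress genes fell in 21 of 37 and rose in 1 (median -0.32), among them Gpx2, the metallothionein Mt1 (151 and 165 CPM in Dox cells, against 255 and 283 CPM in control cells, -0.77) and Srxn1 (-0.69). Of 26 chaperones and folding enzymes of the endoplasmic reticulum, 14 fell and 1 rose (median -0.21), with Hsp90b1 at 475 and 461 CPM in Dox cells, against 845 and 778 CPM in control cells (-0.80), Pdia6 at -0.78, P4hb at -0.62 and Herpud1 at -0.94. None of the fallen counts of these 3 lists moved by over 1.5 times without any 1 library.

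Targets of ATF4 and CHOP, the transcription factors of the integrated stress response, overlap in function with those pathways. Of 31 tested, 18 fell and 1 rose (median -0.35), and the 1 that rose did not pass without any 1 library. Chac1, which degrades glutathione, stood at 2.51 and 3.88 CPM in Dox cells, against 9.04 and 9.75 CPM in control cells (log2 fold change -1.56, SE 0.21, adjusted p = 3.42e-06). Nupr1 stood at 6.87 and 6.22 CPM in Dox cells, against 20.3 and 21.7 CPM in control cells, Vldlr at 2.15 and 2.68 CPM in Dox cells, against 7.34 and 8.51 CPM in control cells, and Slc1a4 at 7.51 and 7.35 CPM in Dox cells, against 22.6 and 24.5 CPM in control cells. In all 4 genes the groups were well apart. Trib3, chosen after its values were seen, stood at -0.96. The transcript of Atf4 itself, likewise chosen, stood at 309 and 320 CPM in Dox cells, against 342 and 330 CPM in control cells, and did not pass (log2 fold change -0.10, adjusted p = 0.212).

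The ATF4 element was searched as TGATGNAA on both strands. It was in the promoters of 8 of the 27 list members with a promoter in the table (29.6%). Over all genes, tested or not, it was 4.51%. Of the 8, 7 fell and 0 rose, with a median log2 fold change of -1.26. Of the 19 without it, 8 fell and 0 rose, with a median of -0.14. Over all tested genes, 16.3% fell among 313 with the element and 14.1% among 11218 without it. The list is of ATF4 and CHOP targets, so its share with the ATF4 element is no independent result. Shown are the promoters of the list members that passed, hold the element and fell the most, Vldlr (chr19:27216770-27217069, plus strand) and Nupr1 (chr7:126625421-126625720, minus strand), from RefSeq in GRCm38.p6. Capitals mark the element, here on the other strand, at position -200 of Vldlr and -110 of Nupr1.
Vldlr: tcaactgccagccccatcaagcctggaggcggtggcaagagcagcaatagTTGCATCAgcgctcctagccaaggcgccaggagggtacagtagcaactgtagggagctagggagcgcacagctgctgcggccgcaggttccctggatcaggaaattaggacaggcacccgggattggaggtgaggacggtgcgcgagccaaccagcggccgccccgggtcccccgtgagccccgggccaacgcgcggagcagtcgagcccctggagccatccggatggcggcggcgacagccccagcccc
Nupr1: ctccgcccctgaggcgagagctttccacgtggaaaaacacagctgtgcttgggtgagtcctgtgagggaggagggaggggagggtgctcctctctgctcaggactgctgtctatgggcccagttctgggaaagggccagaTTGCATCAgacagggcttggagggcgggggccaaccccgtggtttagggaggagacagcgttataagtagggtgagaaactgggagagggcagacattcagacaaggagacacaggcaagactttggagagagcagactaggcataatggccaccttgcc

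**Figure D4:**
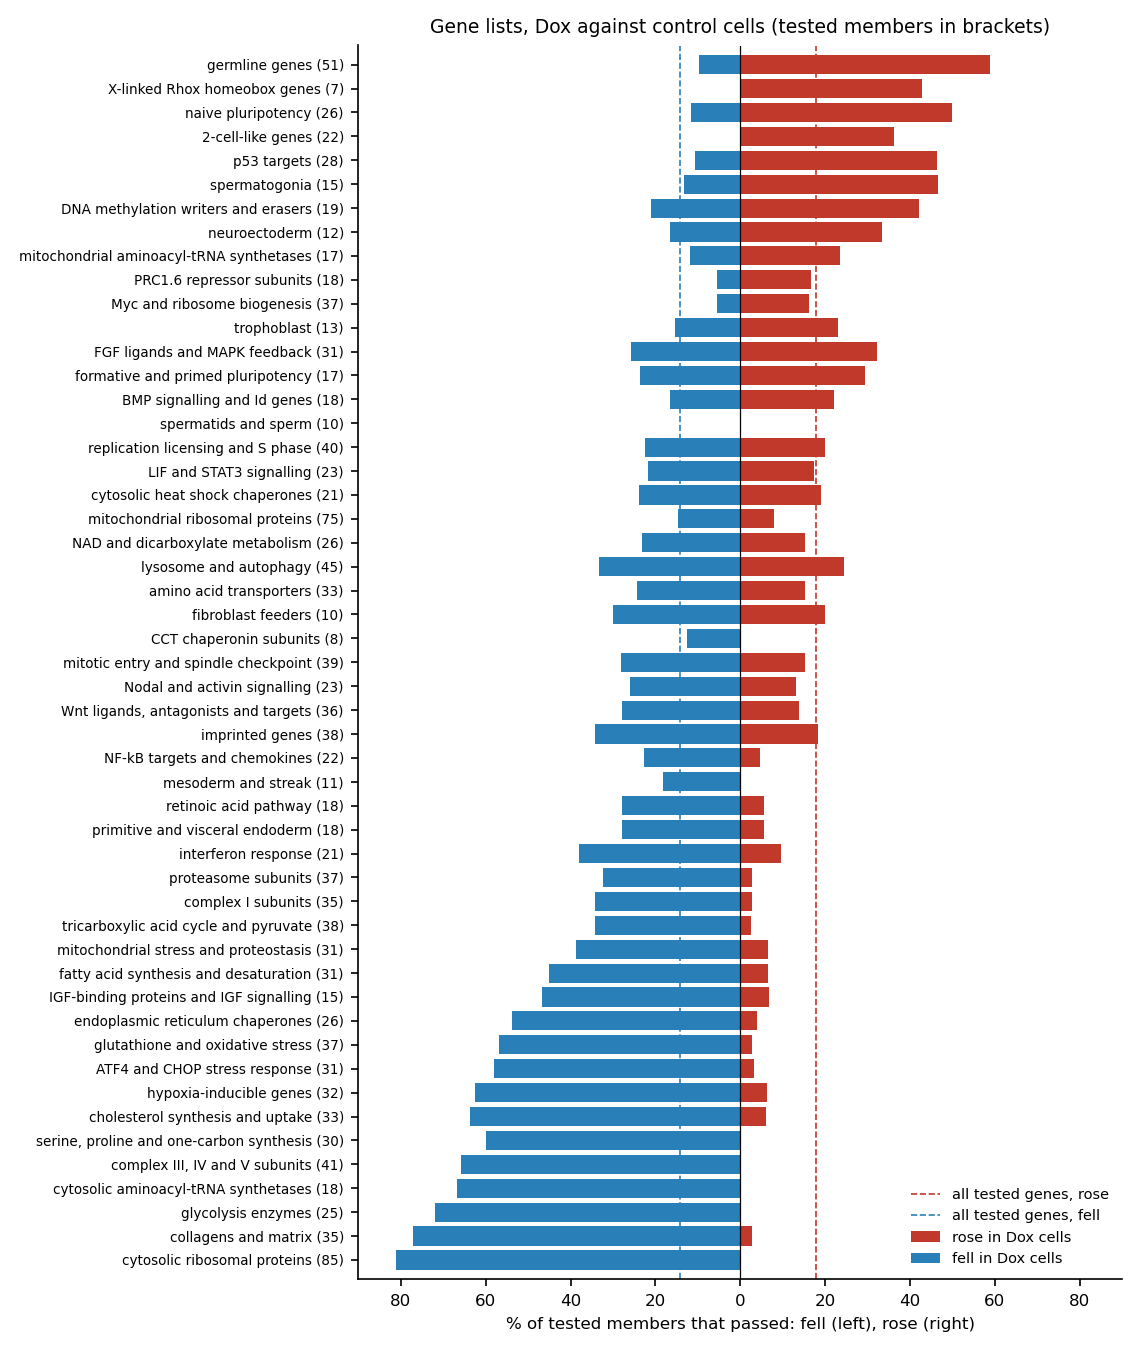
Share of tested members that rose (right) and fell (left) with Dox in each of 51 gene lists, in percent, with the share over all tested genes as dashed lines (17.9% rose, 14.3% fell). Germline genes, of which 30 of 51 rose, stand at the top and cytosolic ribosomal proteins, of which 69 of 85 fell, at the bottom.

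Most cytosolic ribosomal protein genes fell, by small amounts. Of 85 cytosolic ribosomal protein genes, 69 fell and 0 rose, with a median log2 fold change of -0.25. Rps25 stood at 668 and 675 CPM in Dox cells, against 960 and 890 CPM in control cells (-0.46, SE 0.06, adjusted p = 2.53e-06). Such small changes rest on each library: 27 fell without control replicate 1, 33 without Dox replicate 1, 49 without Dox replicate 2 and 63 without control replicate 2. With total counts in place of TMM, 1 of the 85 rose. Of 18 cytosolic aminoacyl-tRNA synthetases, which load tRNAs, 12 fell and 0 rose (median -0.23), with Nars (318 and 304 CPM in Dox cells, against 402 and 403 CPM in control cells) at -0.37 and Gars at -0.36, and 8 to 10 fell without any 1 library.

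Of the subunits of respiratory complexes III, IV and V, 27 of 41 fell and 0 rose (median -0.23), including Cox8a at 189 and 199 CPM in Dox cells, against 270 and 271 CPM in control cells (-0.48, SE 0.06, adjusted p = 9.38e-07). Without Dox replicate 1, 13 fell, without Dox replicate 2, 17, and without control replicate 1, 14. Tissue-specific isoforms of complex IV fell more in fold, with Cox7a1 at 17.5 and 17.2 CPM in Dox cells, against 26.4 and 26.6 CPM in control cells (-0.61) and Cox4i2 at 5.48 and 4.33 CPM in Dox cells, against 11.9 and 9.17 CPM in control cells (-1.10). Of 35 complex I genes, 12 fell and 1 rose (median -0.16), with 5 that fell without Dox replicate 1, 6 without Dox replicate 2, 3 without control replicate 1, and 23 in a fit of the 4 libraries alone. Mitochondrial ribosomal proteins changed in both directions (6 rose, 11 fell of 75; median -0.04, and its sign changed with the scaling). Of these, 5 fell without Dox replicate 1, 7 without Dox replicate 2 and 6 without control replicate 1, and 2 rose without Dox replicate 2 and 3 without either control replicate. Lars2, the mitochondrial leucyl-tRNA synthetase, chosen after its values were seen, stood at 517 and 1382 CPM in Dox cells, against 1664 and 1500 CPM in control cells, so Dox replicate 1 alone stood apart.

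The change with Dox also followed the span of a gene on the chromosome, a property examined after the data were seen. With genes split into 5 equal groups by span, in the shortest (median 3.95 kb) 8.59% rose and 19.7% fell, with a median log2 fold change of -0.09. In the longest (median 118 kb) 26.8% rose and 9.42% fell, with a median of 0.15. The medians of the groups between were -0.03, 0.03 and 0.08, so the order was the same throughout. In A-MYB cells the medians from the shortest to the longest group were 0.09, 0.03, 0.01, -0.08 and -0.01. The part of gene span in the changes of the lists was not tested.

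Genes of the extracellular matrix fell more than any pathway of metabolism did in the median. Of 35 tested genes for collagens and other matrix proteins, 27 fell and 1 rose (median -0.59), and 19 to 23 fell without any 1 library. Matn1, a cartilage matrix protein, stood at 0.666 and 0.584 CPM in Dox cells, against 4.05 and 5.28 CPM in control cells (log2 fold change -2.89, SE 0.32, adjusted p = 1.76e-07). Tgfbi, an adhesion protein induced by TGF-beta, stood at 0.424 and 0.481 CPM in Dox cells, against 2.39 and 2.02 CPM in control cells (-2.28). Col4a1, a chain of basement membrane collagen, stood at 8.54 and 12.7 CPM in Dox cells, against 28.04 and 28.1 CPM in control cells (-1.41), and Nid1, another basement membrane protein, chosen after its values were seen, at 147 and 147 CPM in Dox cells, against 272 and 281 CPM in control cells (-0.91). The summed fibroblast markers were lower in Dox cells as well (given above), with Col1a1 at 0.727 and 0.481 CPM in Dox cells, against 2.25 and 0.971 CPM in control cells. For Col1a1 the adjusted p was 0.0416 in edgeR's test. It did not pass in DESeq2's Wald test (adjusted p = 0.0635) or with the replicate number in edgeR's model (adjusted p = 0.0514). In a list of 17 fibroblast feeder genes 10 were tested, of which 2 rose, 3 fell and 5 did not pass (median -0.45). The part of fibroblasts in the result was not tested. The single matrix gene called as risen did not pass without Dox replicate 1 or control replicate 2.

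IGF-binding proteins fell with them. Igfbp2 stood at 307 and 305 CPM in Dox cells, against 562 and 544 CPM in control cells (log2 fold change -0.85, SE 0.07, adjusted p = 5.5e-09) and Igfbp5 at 1.36 and 0.859 CPM in Dox cells, against 4.81 and 3.07 CPM in control cells (-1.82). Over the list of IGF signalling, 7 of 15 fell and 1 rose, and 4 fell without Dox replicate 1 or either control replicate.

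Antagonists of Nodal, a TGF-beta family ligand, were among the signalling genes that fell. Lefty2 stood at 195 and 197 CPM in Dox cells, against 427 and 435 CPM in control cells (log2 fold change -1.14, SE 0.06, adjusted p = 4.49e-14). As for Lefty1, both Dox libraries lay below both control libraries. Over the list 6 of 23 fell and 3 rose (median -0.11), 10 fell in a fit of the 4 libraries alone, and 0 rose without control replicate 1 and 1 without Dox replicate 1.

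In the BMP pathway 4 of 18 genes rose and 3 fell. Its target genes Id3 and Id1, inhibitors of basic helix-loop-helix factors, went opposite ways. Id3 stood at 51.7 and 56.1 CPM in Dox cells, against 21.8 and 20.1 CPM in control cells (log2 fold change 1.36, SE 0.09, adjusted p = 2.65e-11), and Id1 at 11.7 and 11.5 CPM in Dox cells, against 22.1 and 20.8 CPM in control cells (-0.89, SE 0.12, adjusted p = 2.58e-06). The ligand gene Bmp4 stood at 0.52. Without Dox replicate 1 or either control replicate, 1 BMP gene fell. Of 31 genes of FGF ligands and MAPK feedback, 10 rose and 8 fell, but 3 rose without Dox replicate 1, 5 without control replicate 1, and 5 fell without Dox replicate 2. Fgfr2 stood at 2.73 and 2.99 CPM in Dox cells, against 0.935 and 0.971 CPM in control cells (1.58), and the phosphatase gene Dusp4 at 1.32.

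Wnt genes had 5 of 36 that rose and 10 that fell. Both of the following encode secreted Wnt antagonists and went opposite ways. Dkk1 stood at 1.33 and 1.65 CPM in Dox cells, against 0.381 and 0.272 CPM in control cells (2.16), and Sfrp5 at 1.73 and 1.72 CPM in Dox cells, against 4.33 and 4.43 CPM in control cells (-1.34). Without Dox replicate 1 it was 3 that rose and 6 that fell, without Dox replicate 2, 3 that rose, without control replicate 1, 2 that rose, and without control replicate 2, 6 that fell. In LIF signalling, 4 of 23 rose and 5 fell. Klf4 stood at 338 and 338 CPM in Dox cells, against 248 and 250 CPM in control cells (0.44), and Socs3, a feedback inhibitor, at 111 and 117 CPM in Dox cells, against 161 and 163 CPM in control cells (-0.50). The number of LIF genes that fell was 2 or 3 without any 1 library. The retinoic acid list had 5 of 18 that fell and 1 that rose, with the receptor gene Rara at 37.5 and 36.1 CPM in Dox cells, against 61.7 and 68.0 CPM in control cells (-0.82).

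Of 28 p53 targets, 13 rose and 3 fell (median 0.19), and without any 1 library 9 or 10 rose and 0 to 2 fell. Eda2r, a receptor of the TNF family, stood at 82.9 and 77.5 CPM in Dox cells, against 38.5 and 42.6 CPM in control cells (log2 fold change 0.99, SE 0.07, adjusted p = 3.84e-10). Trp53inp1, a p53 cofactor, stood at 0.67 and Polk, a translesion polymerase, at 0.63, and Mdm2, the ligase that degrades p53, chosen after its values were seen, at 0.52. Interferon response genes had 8 of 21 that fell and 2 that rose (median -0.26), with 5 that fell without control replicate 1. Ddx58, which encodes the RNA sensor RIG-I, was one of those that rose (30.6 and 31.7 CPM in Dox cells, against 16.9 and 16.2 CPM in control cells, 0.91), while Ifitm3 stood at 60.6 and 59.7 CPM in Dox cells, against 87.9 and 95.5 CPM in control cells (-0.61) and Irf1 at -0.59. Of the NF-kB targets 5 of 22 fell and 1 rose. Ltb, which encodes lymphotoxin beta, stood at 0.939 and 0.481 CPM in Dox cells, against 3.67 and 3.65 CPM in control cells (-2.34), and the inhibitor Nfkbia at 27.3 and 29.1 CPM in Dox cells, against 46.0 and 42.8 CPM in control cells (-0.66). Without Dox replicate 1 or control replicate 1, 3 NF-kB targets fell.

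The lineage lists were short, and their calls stand beside the 32.2% of all tested genes called. Of 12 neuroectoderm genes 4 rose and 2 fell, with Pax6 at 1.64 and 2.06 CPM in Dox cells, against 0.554 and 0.272 CPM in control cells (2.13) and the tubulin gene Tubb3 at 122 and 119 CPM in Dox cells, against 256 and 251 CPM in control cells (-1.07). Among 13 trophoblast genes, 3 rose and 2 fell, with Gata2 at 14.1 and 13.8 CPM in Dox cells, against 6.34 and 6.84 CPM in control cells (1.08) and Krt8 at -0.79. Of 18 endoderm genes 5 fell and 1 rose, and 2 fell without Dox replicate 1. Of 11 mesoderm genes 2 fell and 0 rose, and 0 or 1 fell without any 1 library. The counts that changed by over 1.5 times without 1 library were also those of neuroectoderm genes that fell (1 without either Dox replicate or control replicate 1) and of trophoblast genes that fell (1 without any 1 library).

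The series also holds peaks of H3K27ac, a histone mark found at promoters and enhancers in use, in pachytene spermatocytes, where the authors called 4 peak lists of 21269 to 29042 peaks, 1 for each library. Regions called in both wild-type lists and in neither A-myb mutant list numbered 4046. Of the 259 genes that rose at least 2-fold in Dox ES cells and had a start site in the reference table, 25 (9.65%, 95% exact binomial interval 6.34 to 13.9%) had one within 50 kb of such a region. Among the 157 that fell at least 2-fold it was 8 (5.1%, 2.23 to 9.79%), and among all 11531 tested genes with a start site 587 (5.09%). Regions of both mutant lists alone gave 4.63% of risen genes and 2.45% of all genes, and regions of all 4 lists 28.6% and 19.8%.

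The 25 risen genes near wild-type-only regions include Dnahc11 (6.78 and 5.88 CPM in Dox cells, against 0.658 and 0.777 CPM in control cells), Cdh24 (32.3 and 32.4 CPM in Dox cells, against 4.33 and 5.36 CPM in control cells), and Zfp758 and Zfp944 of the run on chromosome 17. Tdrd9, a helicase of the piRNA pathway (chromosome 12, 111971488 to 112068854), was another, with 3.57 and 2.61 CPM in Dox cells, against 0.519 and 1.28 CPM in control cells (log2 fold change 1.81). The peaks were measured in another cell type, and no position of an RLTR10B2 copy was used. With peaks of a score of at least 100 the share was 3.47% of risen genes, against 4.2% of all genes. At 10 kb it was 1.54% of risen genes and 0.824% of all genes, and at 100 kb 18.1% of risen genes and 10.5% of all genes.

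The same induction was made in A-MYB cells, in libraries that share none with those above, and there 4174 genes rose with Dox (28.5%) and 4463 fell (30.4%). Of the 337 genes that rose at least 2-fold without A-MYB, 272 also rose in A-MYB cells (80.7%), 6 fell and 59 did not pass. Of the 250 that fell at least 2-fold, 120 also fell (48.0%), 24 rose and 106 did not pass. Of all 2626 genes that rose, 42.5% rose in A-MYB cells and 25.3% fell there, and of all 2090 that fell, 64.0% fell and 7.66% rose.

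The difference between both Dox effects (with A-MYB minus without) passed in the positive direction for 2410 genes (16.4%) and in the negative direction for 3587 (24.5%). That split rests on the scaling. With total counts, 3743 were more positive and 2293 more negative, and the median difference over all genes was -0.00253 with TMM scaling and 0.16 with total counts. Among the 337 risen genes, 38 had a larger Dox effect with A-MYB, 40 a smaller one and 259 did not pass. Among the 250 fallen genes, 96 had a more positive effect with A-MYB, 18 a more negative one and 136 did not pass. Both sets were chosen by the Dox effect without A-MYB, which the difference subtracts. Noise in that effect thus tilts the difference the other way, so these splits are in part fixed by the choice. H19 was one whose effect was smaller with A-MYB (log2 fold change 1.41 there, difference -1.35, adjusted p = 4.3e-07), as was Neto2 (0.57 there, difference -1.47, adjusted p = 2e-05), while Cdh24 had a larger one (3.87 there, adjusted p of the difference 7.14e-06). For Stac3, Sytl4 and Nmnat3 the difference did not pass (adjusted p = 0.853, 0.513 and 0.303), with log2 fold changes of 6.07, 5.62 and 4.91 in A-MYB cells.

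**Figure D5:**
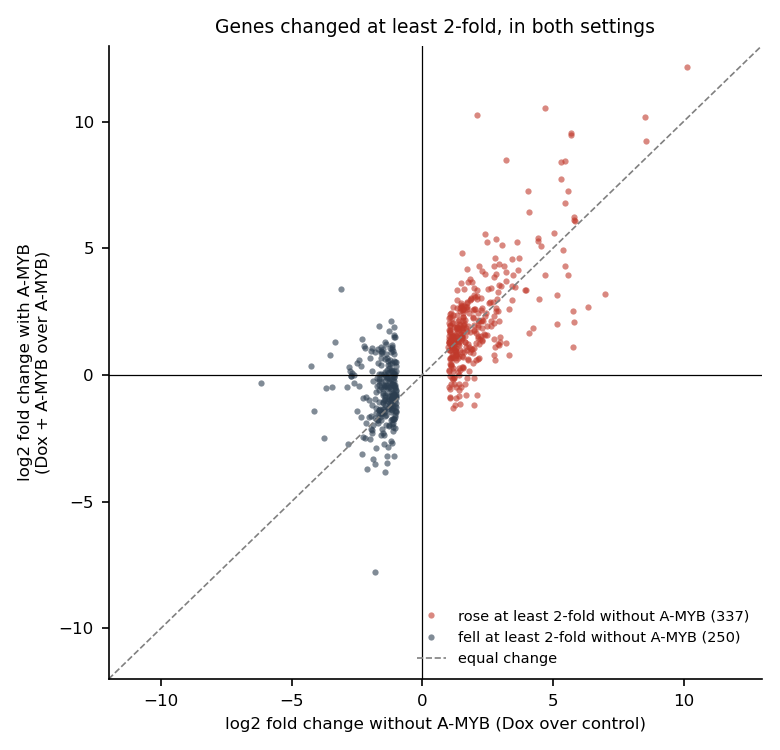
Log2 fold change with Dox in A-MYB cells (y axis) against that without A-MYB (x axis) for the 337 genes that rose and the 250 that fell at least 2-fold without A-MYB. Each point is 1 gene, chosen by its x value; 272 of the 337 also rose in A-MYB cells and 120 of the 250 also fell.

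List medians without and with A-MYB are given side by side. The median log2 fold change of germline genes was 0.63 without and 0.73 with A-MYB, and that of 2-cell-like genes 0.67 and 0.71. Naive pluripotency genes had 0.15 without and -0.41 with A-MYB, and Klf4 stood at 0.44 without and -0.51 with it (adjusted p of the difference 1.5e-09). Tet1 stood at 0.59 without and -0.93 with A-MYB (adjusted p of the difference 1.4e-06), and Mga at 0.77 and 0.11 (2.42e-05). Glycolysis genes had a median of -0.39 without and -1.33 with A-MYB, and hypoxia-inducible genes -0.48 and -1.33. Matrix genes had -0.59 without A-MYB, where 27 fell and 1 rose, and -0.21 with it, where 15 fell and 7 rose. Matn1 fell without A-MYB and stood at -0.47 with it (adjusted p of the difference 6.88e-05). No test was made of the difference of a list.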

How the data were processed

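RNA-seq was made with a TruSeq Stranded mRNA kit, per the labels' protocols. The deposited ES files hold raw counts of reads per gene symbol. The authors' H3K27ac peak lists give tag counts, a score and a fold ratio for each peak. Tools named in the submitters' processing notes are HISAT2 2.1.0 and HTSeq, Bowtie2 2.3.3.1 and MACS 1.4.2, and bcl2fastq 2.20.0, with the build mm10. Their roles and settings, strand included, are not given in the sources used here, so overlapping and antisense genes are uncertain. Input libraries were not analysed here.

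Of 23420 genes, 14664 passed filterByExpr in the 8 ES libraries. Counts were scaled by TMM and fitted with edgeR 4.0.16 (R 4.3.3; glmQLFit, robust, 4 groups, 4 residual degrees of freedom). Contrasts were tested two-sided with glmQLFTest, with Benjamini-Hochberg adjustment over all tested genes, and the scripts were tested on simulated data. The SE was taken from each gene's log2 fold change and F statistic, as its size over the root of F. Replicates differed by more than sampling noise (chi-square per degree of freedom 5.41 in Dox, 7.93 in control), and the biological coefficient of variation was 0.0631. Intervals and floors cover counting error only.

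Members and lists were chosen with earlier results of these data known. The named genes were the 12 that rose most and the 12 that fell most, and the 6 with the largest gain and loss in CPM. These had to pass at a mean of at least 5 CPM in the higher group. Both libraries of 1 group also had to lie above both of the other. Further named were up to 4 members per list, Mybl1 and 5 pluripotency genes, 5 per direction by interaction, and up to 6 runs. Alternatives were DESeq2 1.42.0, other scalings and filters, a replicate block, a fit of 4 libraries and leaving out each library. Some genes that the rule names are not reported here.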

Additional observations from a re-analysis of the deposited data

Results flagged for a closer look

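The Dox effect with A-MYB and that without A-MYB were set against each other in edgeR's interaction test, and the values here are log2 differences, positive where the effect with A-MYB was the more positive. The test passed in 2410 genes with a positive and 3587 with a negative difference. Among the genes that changed at least 2-fold without A-MYB, the 5 largest differences in each direction were as follows. These genes were chosen in part by the Dox effect without A-MYB, which the difference subtracts. Noise in that effect tilts the difference the other way.

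Kcnt1, a sodium-activated potassium channel, differed by 8.18 (adjusted p = 3.58e-05; Dox effect 2.09 without A-MYB), on 186 and 160 counts in Dox + A-MYB libraries and 0 in both A-MYB libraries without Dox. Stc1, a secreted glycoprotein hormone, differed by -5.98 (adjusted p = 0.00513; Dox effect -1.79 without A-MYB), on 0 counts in both Dox + A-MYB libraries. With a group at 0, these fitted differences and that of Clps depend on the prior count and are no bound. Vstm2l differed by 4.61 (adjusted p = 0.00448), on 1 and 1 counts in the Dox libraries without A-MYB. Zfp758, of the run on chromosome 17, differed by -2.59 (adjusted p = 2.89e-05), and the small nucleolar RNA gene Snord12 by -2.48 (adjusted p = 0.00113; 1.16 without and -1.31 with A-MYB). These 5 differences also passed without any 1 of the 8 libraries.

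The other 5 were of genes with few counts and were lost without single libraries. Sit1 differed by 6.48, on 1 and 0 counts in A-MYB libraries without Dox (lost without Dox + A-MYB replicate 2 and control replicate 1), Clps by 5.87, on 0 counts in both Dox libraries without A-MYB (lost without either Dox replicate and control replicate 2), Fam5c by -3.15 (lost without A-MYB replicate 2 and control replicate 2), Fgf8 by 4.62 and Snora28 by -2.90 (each lost in 5 of the 8 repeats). The highest adjusted p in those repeats was 0.0855 for Sit1, 0.103 for Clps, 0.0808 for Fam5c, 0.149 for Fgf8 and 0.145 for Snora28.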

How the results depend on the processing

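The counts of genes that rose and fell were 2294 and 2361 with DESeq2 size factors, 3238 and 1731 with total counts, 2752 and 2869 in a fit of the 4 libraries alone, 2098 and 2151 with DESeq2's Wald test, 2726 and 2104 without a filter and 2295 and 2354 with CPM of at least 1 in 2 libraries, so which direction held more genes rested on the setting. Without 1 of the 4 libraries 1462 to 1959 rose and 1212 to 1463 fell, and 225 to 323 rose and 187 to 211 fell at least 2-fold. The interaction gave 3743 more positive and 2293 more negative genes with total counts, and 1793 to 2679 and 2856 to 3496 without 1 of the 8 libraries; the cause was not tested. Over all tested genes, same-numbered libraries did not deviate together (correlations -0.0269 to 0.0843), which does not show whether single genes did. Zfp820 and Zfp944 of the chromosome 17 run were higher in replicate 1 of the Dox, Dox + A-MYB and A-MYB groups, but not of the control group. For Zfp820 the adjusted p in edgeR's test was 0.00338 without and 2.3e-05 with the replicate block. With the replicate block 2782 genes rose and 2176 fell, and the interaction had 2506 and 3706. The share of risen genes near wild-type-only regions was 1.54% at 10 kb, 18.1% at 100 kb and 3.47% with a score of at least 100. Of 246 named genes, 244 passed, 73 lost the call without some library, 19 in another setting and 0 changed sign. With 2 libraries a group, small changes and genes of a few CPM are the least firm.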

Other observations

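Further gene groups moved in both directions or rested on single libraries. Of 45 lysosome and autophagy genes 11 rose and 15 fell, with the hydrolase gene Hexa (log2 fold change 0.54) among the first and the protease gene Ctsf (-0.83) among the second, and 7 rose without Dox replicate 1 and 6 without control replicate 1. Of 38 genes of the tricarboxylic acid cycle and pyruvate use, 13 fell and 1 rose, with the cytosolic isocitrate dehydrogenase Idh1 at 162 and 162 CPM in Dox cells, against 271 and 260 CPM in control cells (-0.71) and Pck2 at -1.04, and 6 to 9 fell without any 1 library. Of 33 amino acid transporters 8 fell and 5 rose, and Slc38a3 stood at 1.97 and 2.16 CPM in Dox cells, against 4.78 and 6.25 CPM in control cells (-1.41), and 2 rose without Dox replicate 1 or control replicate 1.

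Among cytosolic heat shock chaperones 5 of 21 fell and 4 rose, with Hspb1 at 314 and 326 CPM in Dox cells, against 472 and 475 CPM in control cells (-0.57), and 1 or 2 rose without any 1 library. Replication licensing genes had 8 of 40 that rose and 9 that fell, with Orc2 at 0.38 and Ccne1 at -0.43, and 4 fell without Dox replicate 1. Mitotic genes had 6 of 39 that rose and 11 that fell, with Aurkb at 82.8 and 84.6 CPM in Dox cells, against 110 and 106 CPM in control cells (-0.37), and 0 rose without control replicate 1, 2 without Dox replicate 1 and 3 without Dox replicate 2, while 5 fell without Dox replicate 1. Proteasome subunits had 12 of 37 that fell and 1 that rose, with Psma2 at 279 and 283 CPM in Dox cells, against 362 and 329 CPM in control cells (-0.30), and 3 fell without control replicate 1, 7 without Dox replicate 1 and 5 without Dox replicate 2.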
